A study of Mus musculus with 1 sample.

Results

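The genes described are 10 sensors and adaptors that detect microbial molecules and cell damage from inside the cell: Nod1, Nod2, Nlrc4, Nlrp3, Nlrx1, Naip5, Ifih1, Mavs, Tmem173 and Aim2. They were chosen by name, and each of the 10 had 1 named probe among the 19321 genes the array names. Tmem173, which encodes the adaptor STING, appears on the platform under its newer symbol Sting1. The measurements come from 1 one-colour array of the parental RAW264.7 line, a mouse macrophage-like line grown in medium with 10% fetal calf serum, with no added stimulus named in the labels. The study asked which genes the line needs to take up peroxiredoxin, by setting parental cells against lines mutagenised with ENU and sorted for lost uptake; the mutant lines were not analysed here. There is 1 array, 1 spot per sensor and no replicate, so no p-value is given and no line or condition is compared.

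Cells carry several systems of this kind. NOD-like receptors such as NOD1 and NOD2 bind fragments of the bacterial wall and signal through a kinase to NF-kB, while NAIP proteins bind flagellin or secretion-system proteins and hand the signal to NLRC4. NLRP3, NLRC4 and AIM2 build inflammasomes, complexes that activate caspase-1 and release interleukin-1 family cytokines. Ifih1 encodes MDA5, which binds long double-stranded RNA and signals through MAVS on mitochondria, and STING answers a cyclic dinucleotide made when the enzyme cGAS meets DNA in the cytosol; these routes lead to type I interferon.

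Signal is the median pixel intensity of a spot in arbitrary units, with no local background subtracted. It was read against a pair of limits. The blank limit, 22.98, is the mean plus 2 SD of the empty spots of the array after the outer 5% at each end were left out. The receptor limit, 55.8, is the value under which 95% of the 1223 probes for smell and taste receptors lie, genes with no known role in macrophages for the most part. The blank limit is weak evidence by itself, because 37.2% of the 1212 smell and taste receptor genes passed it; at the receptor limit 5.12% passed, a share fixed by how that limit was made. Unsubtracted signal also followed the surroundings: over gene probes its Spearman correlation with local background was 0.879. Empty spots lay in darker surroundings, with a median local background of 17.1 against 23.4 for gene probes. With local background subtracted, 63.2% of all named genes passed the blank limit, against 72.8% without. Intensity also depends on the probe, so the sensors were not ranked against each other. A probe that binds poorly gives a low value even where its transcript is plentiful. Repeated spots give the technical spread within this array: over 24 spots each, the bright positive controls had a coefficient of variation of 4.98% and 5.37%. Near the blanks, at the level of Nod1, Nod2 and Nlrc4, the negative controls had coefficients from 3.50% to 8.91%.

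The cytosolic DNA and RNA adaptors and the DNA sensor AIM2 gave signal over both limits, whereas the probes of the peptidoglycan sensors NOD1 and NOD2 gave none over the blanks. Of the 10 sensors, 8 passed the blank limit, where 72.8% of all named genes passed. Of the 10, 6 passed the receptor limit (Tmem173, Mavs, Aim2, Nlrp3, Naip5 and Nlrx1), where 42.8% of all named genes passed. Ifih1 and Nlrc4 lay between the limits, and Nod1 and Nod2 were not over the blank limit. The median of the 10 was 74.9, against 40.1 for all named genes.

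**Figure D1:**
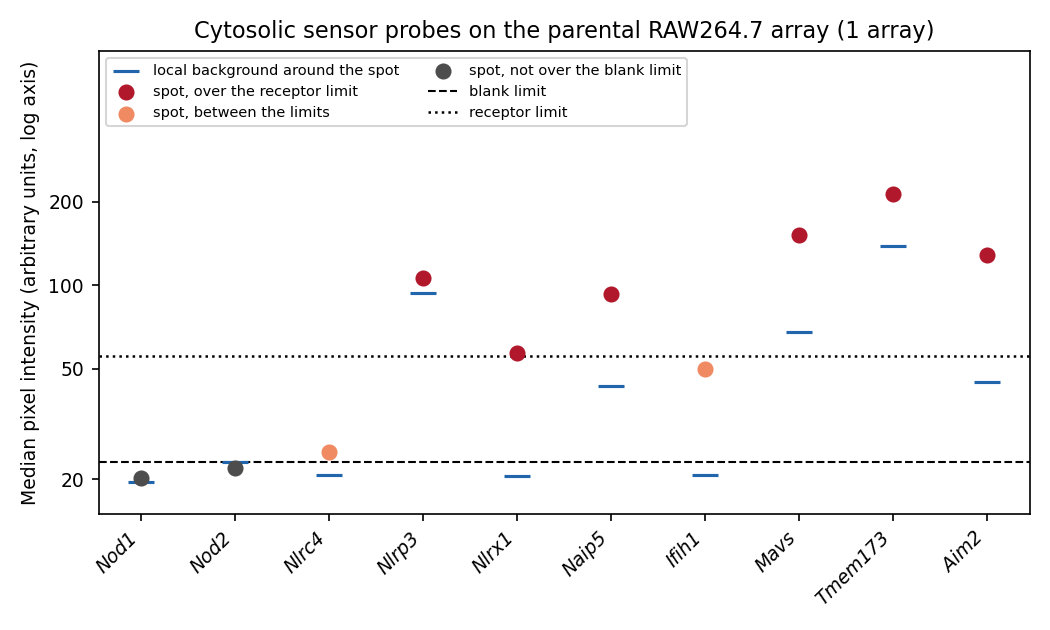
Signal of the 1 probe of each of the 10 sensors (points) and the local background around its spot (blue dashes), in arbitrary units on a log axis, with the blank limit at 22.98 (dashed) and the receptor limit at 55.8 (dotted). Nod1 and Nod2 sit at the blank limit or under it, and the spot of Nlrp3 at 105.8 lies close to its local background of 94.0.

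Tmem173 (probe M200014359), whose product STING relays DNA sensing from the endoplasmic reticulum, read 213.3, or 9.28 times the blank limit and 3.83 times the receptor limit. Of the 1223 smell and taste receptor probes, 4 read as high or higher. The glass around its spot read 138.3, so the spot stood 1.54 times over its surroundings. Mavs (probe M200013435), the mitochondrial adaptor of the RNA helicases, read 151.3, which is 6.58 times the blank limit and 2.71 times the receptor limit. Its local background was 67.9, and 11 of the receptor probes reached its level. Its highest neighbouring spot read 4159, and the part of that spot in the reading was not tested. Tmem173 and Mavs were the only sensors of the 10 that also exceeded the 99th percentile of the receptor probes, 146.0. Mavs did so at 1.04 times, a margin smaller than the spread between repeated bright control spots. Both calls rest on signal without background subtraction. With local background subtracted, Aim2 stood at 83.6, Mavs at 83.4 and Tmem173 at 75.1.

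Ifih1 (probe M200004157) read 50.05, which is 2.18 times the blank limit but 0.897 times the receptor limit. Its surroundings were dark, at 20.7, and after subtraction of the local background it passed the receptor limit made in the same way at 1.09 times. The call for this MDA5 gene at the stricter limit thus depends on how background is treated. Around it, 14 genes of RIG-I-like receptor and MAVS signalling were measured, of which 14 exceeded the blanks and 13 the receptor limit (median 107.8). With local background subtracted or with normexp these counts were 14 and 10. Rigi, the helicase RIG-I that senses short RNA with a triphosphate end, read 80.6, and Dhx58, the third helicase of the family, read 57.1. The kinase gene Tbk1 read 374.0 and its substrate, the transcription factor Irf3, read 233.0. Trim25, a ubiquitin ligase of this pathway, read 484.5. Irf7, the interferon-induced partner of Irf3, lay between the limits at 35.8.

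Aim2 (probe M400002070), which binds double-stranded DNA and nucleates an inflammasome, read 128.3, or 5.58 times the blank limit and 2.30 times the receptor limit. Its local background was 44.7. Among its 8 neighbouring spots the highest read 25473, and the part of that bright spot in the reading was not tested. Of 14 measured genes for other DNA sensors and DNA clearance, 12 passed both limits and 2 passed neither, with a median of 183.5. Cgas, the enzyme that makes the STING ligand, read 151.6, and Zbp1, a sensor of Z-form nucleic acid, read 142.1. The AIM2-like genes differed: Ifi204 read 105.3 and Ifi203 read 56.0, just over the receptor limit, while Ifi205 at 19.4 was not over the blank limit. Trex1, the exonuclease that removes cytosolic DNA, read 215.5, and Samhd1, which depletes nucleotides, read 462.3. The ubiquitin ligase gene Trim56, at 19.5, was the other gene that passed neither limit.

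Nlrp3 (probe M300008390), the inflammasome sensor of potassium loss and membrane damage, read 105.8, or 4.60 times the blank limit and 1.90 times the receptor limit. The local background of its spot was 94.0, so the spot stood only 1.12 times over its surroundings, against a median of 1.43 over all gene probes. Its 8 neighbouring spots ranged from 18.4 to 540.9. After subtraction of the local background Nlrp3 lay at 0.435 times the receptor limit made in the same way, and with normexp, a model-based background correction, at 0.828 times. Its place over the receptor limit therefore holds without background subtraction and ends with it, and over the blank limit it stood at 2.0 and 1.09 times in these settings.

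Naip5 (probe M300019200), the flagellin receptor, read 92.8, or 4.04 times the blank limit and 1.66 times the receptor limit, with a local background of 43.3. Its highest neighbouring spot read 8549, whose part was likewise not tested. Naip5 belongs to a cluster of closely alike genes, so its reading may include transcripts of its paralogs, which these data cannot separate. Of those, Naip2, which binds a secretion-system protein, read 141.8, and the probes of Naip6 read 38.1 and 27.0, between the limits. Nlrc4 (probe M300003898), the partner through which NAIP proteins act, read 25.1, only 1.09 times the blank limit and 0.450 times the receptor limit. Of the receptor probes, 348 of 1223, or 28.5%, read as high or higher. With local background subtracted or with normexp, Nlrc4 fell short of the blank limit, at 0.736 and 0.977 times.

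Nlrx1 (probe M300008074), a mitochondrial member of the NOD-like family described as a brake on MAVS and NF-kB signalling, read 57.1. That is 2.48 times the blank limit and 1.02 times the receptor limit, a margin smaller than the spread between repeated control spots. Its surroundings read 20.6 and its highest neighbouring spot 2595, and with local background subtracted it stood at 1.35 times the receptor limit.

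Nod1 (probe M300011319), the sensor of diaminopimelic acid peptides, read 20.2, which is 0.880 times the blank limit, beside a local background of 19.5. Nod2 (probe M400005370), the sensor of muramyl dipeptide, read 22.0, or 0.959 times the blank limit, beside a local background of 23.1. Of the receptor probes, 721 read as high as Nod1 or higher and 519 as high as Nod2 or higher. Nod2 passed only with the limit lowered to 1 SD, at 1.01 times, and Nod1 passed no version of the limit that was tried. Transcripts of both genes were not detectable with these probes at this array's background.

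**Figure D2:**
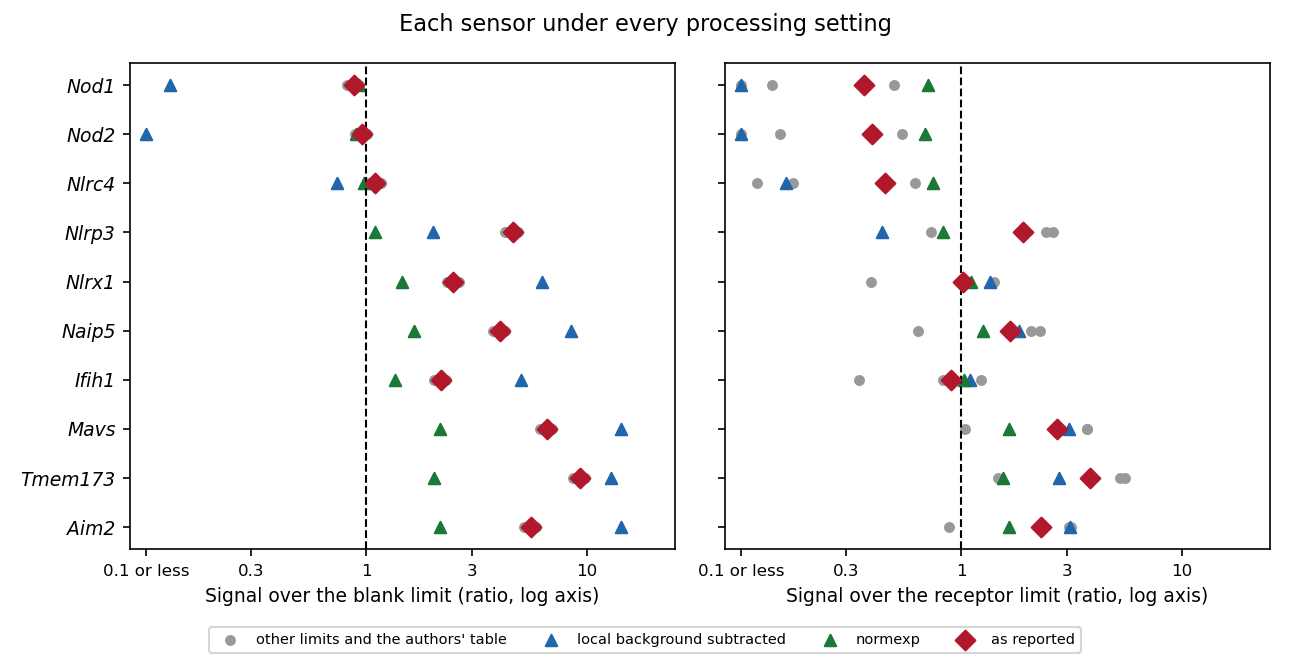
Ratio of each sensor's signal to the blank limit (left) and to the receptor limit (right) on log axes, as reported (red diamonds), with local background subtracted (blue), with normexp (green) and with other limits or the authors' table (grey); ratios under 0.1 are drawn at 0.1. Mavs and Tmem173 stay right of 1 in each panel, while Nlrp3 moves left of the receptor limit with either background correction.

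Of the genes that act around NOD1 and NOD2, all 11 measured exceeded the blanks and 9 of them the receptor limit (median 120.7). With local background subtracted or with normexp these counts were 10 and 7. Slc15a3 and Slc15a4, transporters that bring muramyl peptides out of endosomes to the receptors, read 258.5 and 268.7. The kinase-complex gene Tab2 read 334.3, Ikbkb, a kinase of the NF-kB pathway, read 232.9, and the autophagy gene Atg16l1 read 120.7. Xiap, a ubiquitin ligase needed for NOD2 signalling, lay just over the blank limit at 23.7, 1.03 times, a level that 410 of the 1223 receptor probes reached, and the scaffold gene Ikbkg lay between the limits at 45.4. Ripk2, the kinase directly after NOD1 and NOD2, and Chuk had no named probe and were not analysed here.

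The inflammasome list had 10 of 11 genes over the blanks and 8 over the receptor limit (median 242.9). With local background subtracted or with normexp these counts were 10 and 9. Casp4, the caspase that binds cytosolic lipopolysaccharide, read 190.0. The pore-forming Gsdmd read 446.0, Nek7, a kinase that binds NLRP3, read 242.9, and Ninj1, which ruptures membranes late in lytic death, read 813.3. Of the cytokines released, Il18 read 398.9 and Il1b lay between the limits at 45.1. The ATP-gated channel gene P2rx7, an upstream trigger of NLRP3, lay there too on its probes, at 49.2 and 33.7. The member not over the blank limit was Pycard at 22.4, or 0.973 times. That call was borderline: against the blanks of its own block Pycard stood at 1.001 times. With those blanks or with 1 SD, 11 of the 11 genes passed. Pycard encodes ASC, the adaptor that links NLRP3 and AIM2 to caspase-1. RAW264.7 cells are known to lack ASC, which a reading this near the limit did not test.

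Other genes of the same protein family were read for comparison. Of 10 further NOD-like and pyrin sensors, 9 exceeded the blanks and 3 the receptor limit (median 41.9); the latter count was 6 at the 90th percentile of the receptor probes and 0 at the 99th. The 3 were Naip2, the skin-associated Nlrp10 at 90.2, and Ciita, the master regulator of MHC class II genes, at 79.6. Nlrp1a, at 50.1, lay between the limits, as did Nlrc3 at 42.3, Nlrc5 at 41.6, Nlrp6 at 36.2, Naip6 and Nlrp12, at 24.0, and Mefv, at 20.9, passed neither limit. Of 13 NLRP genes known from oocytes and early embryos, 4 exceeded the blanks and 0 the receptor limit, and their median of 21.2 lay under the blank limit. The count over the blanks was 2 with 3 SD, the 99th percentile of blanks or either background correction, and 6 with 1 SD. Nlrp9b, at 54.4, was the closest of these to the receptor limit, and 1 of the 13 passed it with local background subtracted; Nlrp9b is also known as an RNA-dependent sensor in intestinal epithelium.

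**Figure D3:**
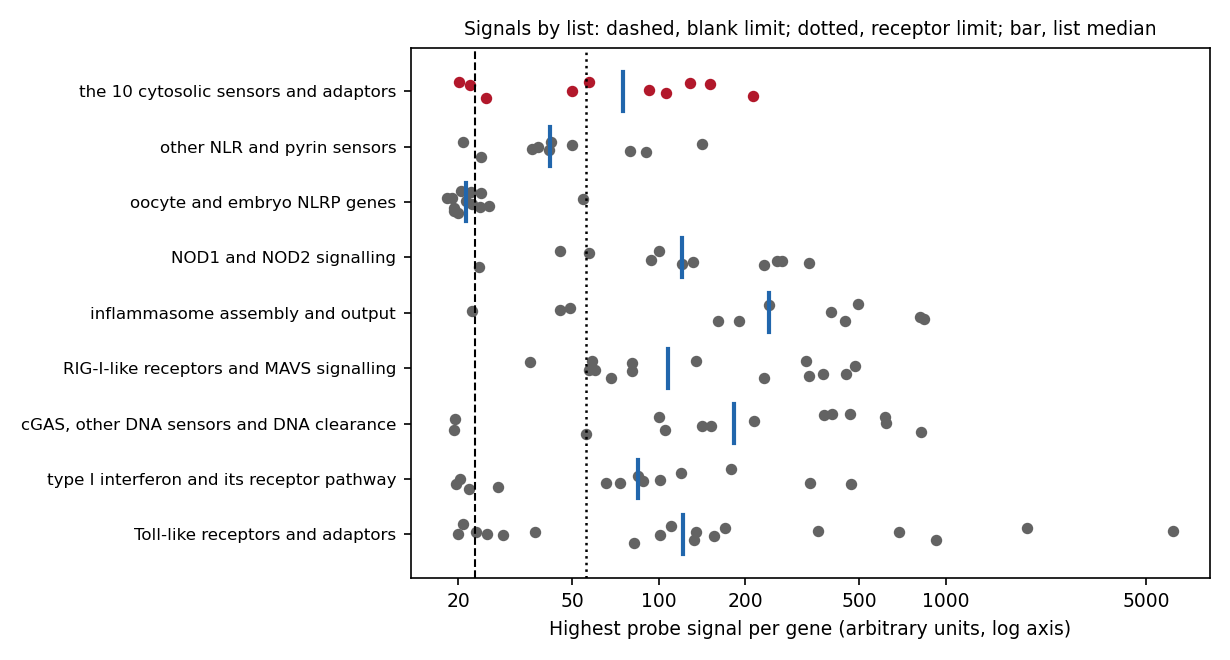
Signal of the highest probe of each gene, in arbitrary units on a log axis, for the 10 sensors (red) and 8 lists of related genes (grey), with list medians as blue bars, the blank limit dashed and the receptor limit dotted. The oocyte and embryo NLRP genes crowd around the blank limit with a median of 21.2, while the sensors spread from 20.2 to 213.3.

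The interferon end of these pathways was read as ligands, receptors and targets. The ligand genes gave little: Ifnb1 lay between the limits at 27.6, and Ifna2 and Ifna4, which read 21.9 and 19.6, were not over the blank limit. The receptor chains Ifnar1 and Ifnar2 read 119.3 and 101.1 and passed both limits, as did the receptor kinases Jak1 at 469.3 and Tyk2 at 178.7. Among targets, Oas1a read 336.0, or 6.02 times the receptor limit. Isg15, a ubiquitin-like modifier, read 88.2 and the antiviral enzyme Rsad2 read 73.5, whereas Ifit1 at 20.4 was not over the blank limit. In all, 10 of the 13 measured genes of this list exceeded the blanks and 9 exceeded the receptor limit. These counts were the same with local background subtracted or with normexp. Toll-like receptors and adaptors, the membrane-bound counterpart, passed in 16 and 12 of 18 cases, with a median of 121.6. With local background subtracted or with normexp they passed in 13 and 11 cases.

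The cell type was checked on short marker lists. All 10 macrophage markers passed both limits, from 108.6 for Itgam to 46513 for Lyz2. Markers of T and NK cells, B cells and fibroblasts passed the receptor limit in 0 of 8, 0 of 4 and 0 of 6 cases, and epithelial markers in 1 of 6 cases, namely Cldn4 at 249.1. The defining markers of macrophages were thus present.

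Promoter sequence was set beside the signals, because promoters rich in CG pairs are typical of broadly used genes. RefSeq sequences of build GRCm38.p6 were matched by symbol for 9 of the 10 sensors; Tmem173 had no entry in the table used. Over the 15159 named genes with an entry, counted in the 250 bases before the gene start (the highest count for genes with several starts), the share over the receptor limit was 14.2% at 0 to 4 CG pairs, 35.8% at 5 to 9, 53.8% at 10 to 14 and 61.8% at 15 to 19. At 20 or more pairs, the largest class with 4341 genes, the share was 61.0%, so it rose no further. Without the smell and taste receptors, which set that limit and mostly have few CG pairs, the share at 0 to 4 pairs was 17.1%. The sensors were spread over the classes under 20 pairs. Of the 4 with 0 to 4 pairs, 3 passed the receptor limit (Naip5 with 1 pair, Nlrp3 and Aim2 with 4), and Nlrc4, with 2, did not. Of the 2 with 5 to 9 pairs, Nlrx1 with 5 passed and Nod2 with 7 did not. Of the 2 with 10 to 14 pairs, Ifih1 with 11 and Nod1 with 12, 0 passed; the other listed start of Nod1 has 4 pairs, which would place it in the lowest class. Mavs, with 15, passed. With local background subtracted, where Ifih1 passes and Nlrp3 does not, 2 of the 4 and 1 of the 2 passed, against 570 of 4072 and 1148 of 2222 of all genes in those classes. With 9 genes this is a description and no test.

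Examples of few and many CG pairs are shown in 4 sequences, the 250 bases before the start of a pair of signal-giving inflammasome sensors with few CG pairs, of Nod1 at the upstream of its listed starts, and of Mavs. They were picked as examples and show no trend over the sensors. Nlrc4, with 2 pairs and not over the receptor limit, and the other start of Nod1, with 4 pairs, are not printed. Each is written 5′ to 3′ on the gene's strand, with CG pairs in capitals.
Naip5 chr13:100247337-100247586, minus strand: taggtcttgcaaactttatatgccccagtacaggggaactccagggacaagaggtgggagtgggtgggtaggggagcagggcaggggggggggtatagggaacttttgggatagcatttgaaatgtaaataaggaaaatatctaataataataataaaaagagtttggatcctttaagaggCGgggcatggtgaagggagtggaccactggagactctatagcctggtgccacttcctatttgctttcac
Aim2 chr1:173420354-173420603, plus strand: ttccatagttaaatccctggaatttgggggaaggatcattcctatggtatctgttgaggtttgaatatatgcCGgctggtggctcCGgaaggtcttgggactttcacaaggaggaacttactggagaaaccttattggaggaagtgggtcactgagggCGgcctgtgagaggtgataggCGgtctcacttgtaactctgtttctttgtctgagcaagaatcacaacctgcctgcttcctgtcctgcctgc
Nod1 chr6:54972613-54972862, minus strand: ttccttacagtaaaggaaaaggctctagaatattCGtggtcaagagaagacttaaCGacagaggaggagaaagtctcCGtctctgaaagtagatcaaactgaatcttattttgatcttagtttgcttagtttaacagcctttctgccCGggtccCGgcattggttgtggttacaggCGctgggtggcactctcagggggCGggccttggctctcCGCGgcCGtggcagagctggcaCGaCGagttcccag
Mavs chr2:131233813-131234062, plus strand: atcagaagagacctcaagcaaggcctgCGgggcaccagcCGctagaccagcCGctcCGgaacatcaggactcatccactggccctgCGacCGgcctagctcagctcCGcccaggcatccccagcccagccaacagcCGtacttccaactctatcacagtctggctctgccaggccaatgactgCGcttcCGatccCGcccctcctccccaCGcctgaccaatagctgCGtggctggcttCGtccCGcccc
Capitals are scattered through Mavs and gather toward the start of Nod1, while Naip5 has a single pair. The start that these cells use was not measured.

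**Figure D4:**
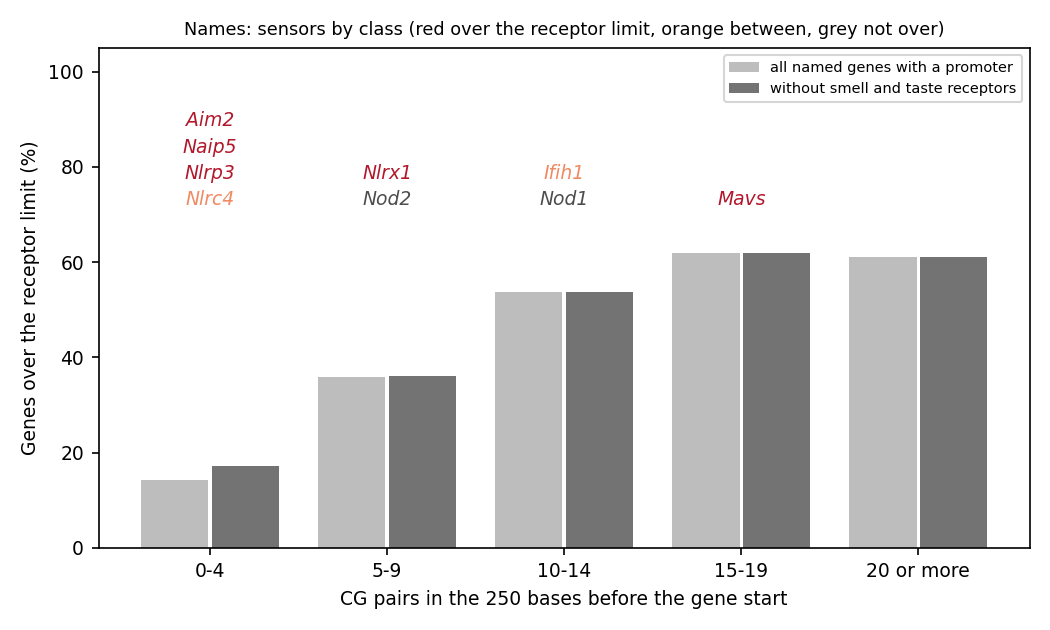
Share of named genes over the receptor limit (bars, percent) by the number of CG pairs in the 250 bases before the gene start, for all genes with a promoter entry and without smell and taste receptors. The names of the 9 matched sensors stand over their class, in red where over the receptor limit, orange between the limits and grey where not over the blank limit; 3 of the 4 names in the lowest class are red.

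Short motifs were searched on both strands in the same 250 bases, over 12 windows for the 9 genes, since Nod1, Nlrp3 and Nlrx1 have 2 listed starts each and the windows of Nlrx1 overlap. The PU.1 core GAGGAA, bound by the leading macrophage factor, was present in 3 windows, of Nlrp3, Ifih1 and Aim2, against 23.3% of all 32851 windows in the table. The kB consensus was present in 2 windows, of Naip5 and of the other start of Nlrp3, against 7.25% of all windows. The interferon response core, a pair of GAAA runs with 2 bases between them, and the AP-1 site TGANTCA were present in 0 of the 12, against 2.98% and 6.75% of all windows. A match is a string of letters and no measured site.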

How the data were processed

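Total RNA of parental cells was amplified, coupled to Cy5 and hybridised to a Toray array, per the labels' protocols. The deposited scanner output gives, per the file headers, the median intensity of each spot and of its local background, from a scan at 3 gains, without subtraction. The array holds 27456 spots, 0 with a flag other than OK, of which 23474 are gene spots of 23473 probes. A second deposited file is the authors' table of processed intensity, with unstated scale: its 16689 values follow the spot median minus the blank mean of 20.6, times 0.486, its median is 25, its 6784 empty cells are probes at 22.97 or lower, and the values are linear with no direction; why that scale was used stays unknown.

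Names came from the platform's annotation, with symbols brought up to date from RefSeq by gene number (20556 of 20690 named probes matched). The blank limit used 2464 of 2736 blanks (mean 20.6, SD 1.18). A gene takes its highest probe. Each sensor and every gene of 8 related lists could be named. Members and lists were chosen with earlier results of these data known. Normexp used limma 3.58.1 with an offset of 50, and other steps used Python 3.11.15. The limit calculation was tested on simulated data whose unexpressed probes were drawn like the blanks. That checked the calculation only. It could not show how the limit performs on this array, where gene probes lie in brighter surroundings than blanks. With 1 array, the number of arrays limits the precision. Alternatives were other blank and receptor limits, background corrections, the authors' table and the lowest probe per gene.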

Additional observations from a re-analysis of the deposited data

How the results depend on the processing

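The count of sensors over the blank limit lay between 7 and 9 of 10 over 10 alternatives, and that of related genes between 80 and 90 of 104, where 86 passed as reported. Of all named genes, 63.2% to 77.2% passed in these alternatives, against 72.8% as reported. Not every alternative could move the sensor count. Each sensor has 1 probe, so its lowest probe is its only one. The authors' table rescales the same spot signal and is empty at 22.97 or lower, so it nearly repeats the blank limit. At the receptor limit the count of sensors lay between 2 and 7 over 6 alternatives, and that of related genes between 36 and 73, where 66 passed as reported. Of all named genes, 27.5% to 49.6% passed in these alternatives, against 42.8% as reported. Here too the lowest probe could not move the sensor count, and the authors' table rescales the same signal. The largest change came from raising that limit to the 99th percentile of the receptor probes, 146.0, which left 2 sensors and 36 related genes; a higher limit calls fewer genes by its construction, and the share of all named genes fell to 27.5%. Counts of 6 sensors over the receptor limit were also found with local background subtracted and with normexp, but with Ifih1 in and Nlrp3 out. Normexp starts from the subtracted values and keeps their order. Its calls against a percentile limit therefore repeat those of subtraction, with 7997 named genes passing in each. No paired analysis was possible because there is 1 array. Levels near the blanks, such as those of Nod1, Nod2 and Nlrc4, are limited by signal over background.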
